A study of Mus musculus with 47 samples.

Results

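The genes described here are the antioxidant genes under the transcription factor NRF2, in cultured mouse microglia, the resident macrophages of the brain. They are Nfe2l2, Hmox1, Nqo1, Gclc, Gclm, Slc7a11, Srxn1, Txnrd1, Gsr and Pgd. They were chosen by gene symbol from the deposited expression table, which lists 53697 genes. All 10 were found, and all 10 were among the 10894 genes that passed the filter on low values. Microglia were grown from the forebrain of C57BL/6 mice, and polyadenylated RNA was sequenced from 47 libraries. E4 and E3 mice carry human APOE ε4 or ε3 in place of both alleles of mouse Apoe, the gene of the lipid carrier apolipoprotein E. KO mice (Apoe -/-) have no intact allele, Het mice (Apoe +/-) have 1, and wild-type (WT) mice have both. Cells were given myelin for 3 h and collected at 24 h, or were left untreated and collected at 24 h. With myelin there were 5 E4, 4 E3, 5 KO, 4 Het and 5 WT libraries, and untreated there were 5 E4, 4 E3, 5 KO, 5 Het and 5 WT libraries. The labels give Taconic as the source of the E4 and E3 mice, under a model number each. The KO and Het mice share 1 Jackson Laboratory number, which differs from that of the WT mice, so that a difference from WT by genotype and a difference by stock cannot be told apart. The labels name no sort of the cells. Whether replicates are separate animals or cultures is not stated in them, and the p-values therefore reflect only how much these libraries vary, part of which may be technical.

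NRF2, the protein of Nfe2l2, is held back by KEAP1, which passes it to a ubiquitin ligase for degradation. Oxidants and electrophiles stop that, and NRF2 then enters the nucleus, pairs with small MAF proteins and binds antioxidant response elements near its target genes. BACH1, a haem-sensing repressor, competes for the same elements, at Hmox1 above all. In microglia and other macrophages the system is known for defence against the oxidants the cells make themselves and against haem taken up with debris. Slc7a11 imports cystine, Gclc and Gclm encode the catalytic and modifier subunits of glutamate-cysteine ligase, the first step of glutathione synthesis, and Gsr returns oxidised glutathione to its reduced form. Txnrd1 reduces thioredoxin, Srxn1 repairs over-oxidised peroxiredoxins, and Pgd is an enzyme of the pentose phosphate pathway that supplies NADPH to these reductases. Hmox1 degrades haem, and Nqo1 reduces quinones.

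Promoter sequences are shown for 4 genes: Gclm, which was higher in KO cells, Slc7a11 and Nqo1, which were lower, and Srxn1, which was higher in untreated KO cells (not in the fit of all 47 libraries, nor after myelin) and lower in E4 and E3 cells. Each runs from 250 bases before to 50 bases after the start of the gene, 5′ to 3′ on the strand of the gene, and was taken from RefSeq (GRCm38.p6). Capitals mark matches to 3 motifs, searched on both strands: the antioxidant response element core TGACNNNGC, the AP-1 and NF-E2 core TGANTCA, and the C/EBP-ATF composite element TGATGCAA. The first of these motifs can overlap the second, but no matches overlap in the sequences shown. Of the 32851 mouse promoters of this length, 12.4% held the first motif, 7.81% the second and 0.895% the third. Gclm lies at chr3:122245307-122245606 on the + strand, Srxn1 at chr2:152105274-152105573 on the + strand, Slc7a11 at chr3:50443564-50443863 on the - strand, and Nqo1 at chr8:107403156-107403455 on the - strand.
Gclm: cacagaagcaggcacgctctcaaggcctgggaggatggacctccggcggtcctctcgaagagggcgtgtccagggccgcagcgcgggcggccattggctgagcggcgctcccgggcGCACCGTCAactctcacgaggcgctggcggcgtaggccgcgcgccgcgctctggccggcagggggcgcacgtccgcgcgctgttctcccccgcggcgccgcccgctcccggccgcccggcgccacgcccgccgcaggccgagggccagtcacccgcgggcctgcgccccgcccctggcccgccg
Srxn1: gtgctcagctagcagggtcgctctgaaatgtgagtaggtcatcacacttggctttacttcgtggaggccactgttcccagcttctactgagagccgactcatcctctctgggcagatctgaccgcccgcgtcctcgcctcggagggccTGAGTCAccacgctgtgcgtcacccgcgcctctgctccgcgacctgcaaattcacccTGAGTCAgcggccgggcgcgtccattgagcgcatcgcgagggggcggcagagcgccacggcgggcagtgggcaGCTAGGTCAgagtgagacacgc
Slc7a11: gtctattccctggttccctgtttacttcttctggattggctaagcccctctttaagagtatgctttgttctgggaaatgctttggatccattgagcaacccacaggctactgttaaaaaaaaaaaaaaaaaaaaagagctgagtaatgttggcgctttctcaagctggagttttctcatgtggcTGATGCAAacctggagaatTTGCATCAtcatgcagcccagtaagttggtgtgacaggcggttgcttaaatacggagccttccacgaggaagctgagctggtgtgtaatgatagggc
Nqo1: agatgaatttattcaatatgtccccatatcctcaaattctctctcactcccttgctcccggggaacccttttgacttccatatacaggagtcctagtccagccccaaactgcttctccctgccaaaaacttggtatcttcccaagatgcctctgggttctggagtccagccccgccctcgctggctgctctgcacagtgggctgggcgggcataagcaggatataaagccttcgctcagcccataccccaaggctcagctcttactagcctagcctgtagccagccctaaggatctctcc
The Gclm window holds 1 match to the antioxidant response element core. The Srxn1 window holds 2 matches to the AP-1 and NF-E2 core and 1 to the antioxidant response element core, which lies after the start. The Slc7a11 window holds 2 matches to the C/EBP-ATF element, facing each other, and the letters of the 3 motifs are not in the Nqo1 window. A match is a stretch of letters and no measurement of binding. Sequence outside these windows was not searched, so a window without a match does not show that a gene lacks the element. In all, 7 of the 10 genes had a promoter in the table, and Hmox1, Gclc and Gsr did not. In the mm10 build, the genes on the + strand were Hmox1 (ENSMUSG00000005413.8) at chr8:75093621-75100589, Gclc (ENSMUSG00000032350.9) at chr9:77754535-77794485, Gclm (ENSMUSG00000028124.15) at chr3:122245557-122270732, Srxn1 (ENSMUSG00000032802.8) at chr2:152105516-152111376, Txnrd1 (ENSMUSG00000020250.10) at chr10:82833951-82897712 and Gsr (ENSMUSG00000031584.16) at chr8:33652523-33698163. Those on the - strand were Nfe2l2 (ENSMUSG00000015839.6) at chr2:75675513-75704641, Nqo1 (ENSMUSG00000003849.8) at chr8:107388225-107403206, Slc7a11 (ENSMUSG00000027737.10) at chr3:49892526-50443614 and Pgd (ENSMUSG00000028961.15) at chr4:149149991-149166771. No gene of the 10 lies on chromosome 7, where Apoe lies. Genes annotated across 5 of the 10 (Nfe2l2, Gclm, Slc7a11, Txnrd1 and Gsr) had median deposited values between 0 and 5.3 TPM, the highest being the snRNA gene Gm24996 across Nfe2l2. In the same deposited unit, before rescaling, the median of Nfe2l2 itself was 26.5 TPM. The strand of counting is not given in the sources used here, so such reads cannot be told apart from those of the gene.

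Levels are given as scaled TPM, a transcript abundance per length that was rescaled to the nuclear protein-coding genes of each library. Depth cannot be read from TPM. Nuclear coding genes made up between 0.468% and 27.3% of the deposited TPM, and 4 of the 9 Het libraries lay under 6% (untreated replicates 3 and 5, myelin replicates 1 and 2). Mouse Apoe checked the labels in part, at 136 to 747 scaled TPM in E4 libraries, 87.8 to 244 in E3 libraries, 67.8 to 90.05 in KO libraries, 9224 to 64216 in Het libraries and 47644 to 84639 in WT libraries. It set E4, E3 and KO libraries apart from Het and WT libraries. The ranges of E4 and E3, of E3 and KO, and of Het and WT overlapped, so the labels within these pairs were not checked by it. In every group, 9 or 10 of 10 microglia markers averaged at least 5 scaled TPM, with sums of 6684 to 7999 in E4, 5253 to 7618 in E3, 8189 to 10278 in KO, 2046 to 9277 in Het and 5692 to 7784 in WT libraries. Markers of other cells moved with genotype. The summed level of 8 border macrophage and monocyte markers was 1053 to 1474 in E4, 1059.9 to 1379 in E3, 1976 to 2395 in KO, 635 to 2595 in Het and 1295 to 2099 in WT libraries, with 2 to 4 of the 8 at a mean of at least 5 and Lyve1, Cd163 and Ccr2 at a mean under 1 in every group. The summed level of 10 astrocyte markers was 1185 to 2488 in E4, 713 to 918 in E3, 51.7 to 105 in KO, 19.8 to 77.4 in Het and 113 to 143 in WT libraries. The summed level of 8 fibroblast and pericyte markers was 109 to 192 in E4, 195 to 532 in E3, 32.1 to 725 in KO, 13.3 to 80.5 in Het and 746 to 1179 in WT libraries. The summed level of 6 neuron markers was 50.8 to 82.3 in E4, 43.9 to 69.8 in E3, 3.69 to 10.4 in KO, 4.54 to 24.8 in Het and 14.7 to 23.00 in WT libraries. The part of these cells in the differences between genotypes below was not tested. In such bulk samples, fewer cells of a type and less RNA per cell cannot be told apart.

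**Figure D1:**
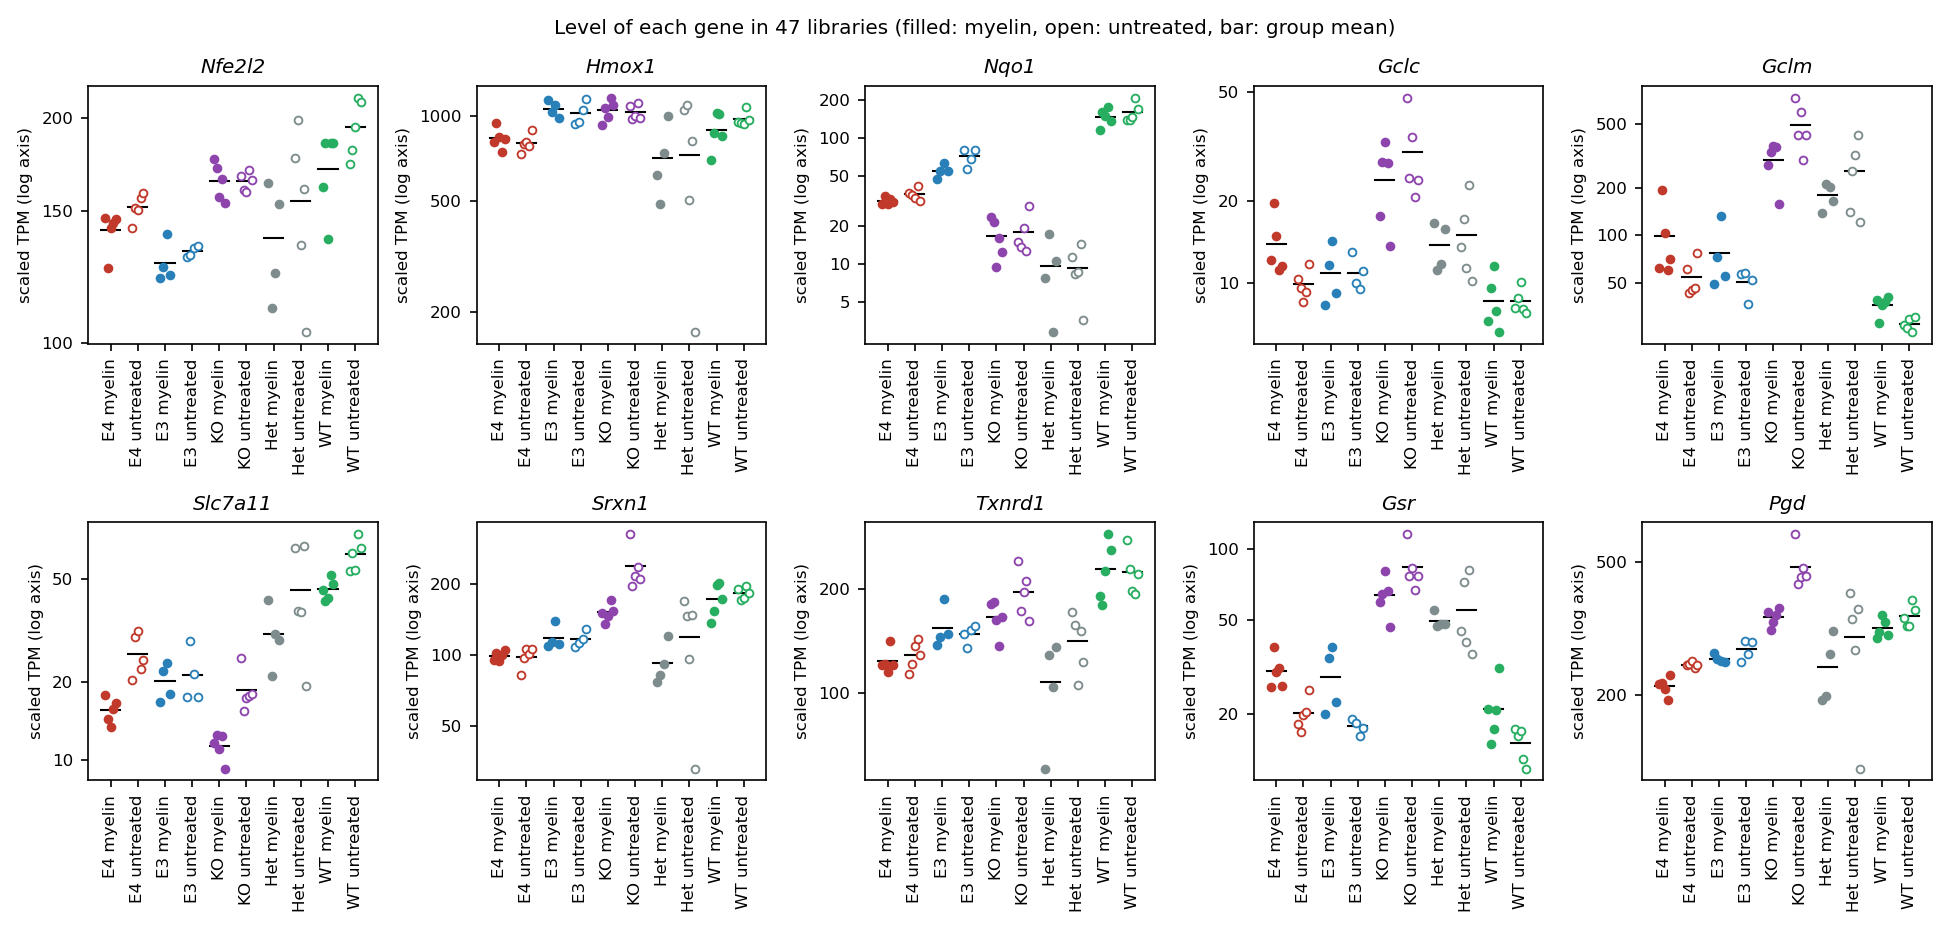
Level of each of the 10 genes in all 47 libraries, in scaled TPM on a log axis, by genotype and treatment; filled points are myelin libraries, open points untreated libraries, and bars are group means. The group means of Gclm, Gclc and Gsr are highest in KO cells, that of Nqo1 is highest in WT cells, and the group means of Hmox1 outside Het lie between 802 and 1065.

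KO cells differed from WT cells in the glutathione genes, which moved in opposite directions, and in Nqo1. Untreated, Gclm, Gsr and Gclc rose, 16.6-fold, 5.22-fold and 3.11-fold, while Slc7a11, the cystine importer of the same pathway, was 3.24-fold lower and Nqo1 8.87-fold lower. Srxn1 and Pgd also rose, Nfe2l2 fell, and Hmox1 and Txnrd1 did not pass the test. This makes 5 of 10 higher and 3 of 10 lower, where 26.1% of the 10894 genes tested were called higher and 30.9% lower, 57% in all. The libraries of 8 of 10 genes did not overlap between the groups, as for 45.7% of all genes. After myelin, 4 of 10 were higher and 3 of 10 lower, against 30.6% and 25.2% of all genes (55.9% in all), and 5 of 10 did not overlap (36.7% of all genes). A call is an adjusted p under 0.05 in limma, two-sided, with Benjamini-Hochberg adjustment over all genes tested. Fold changes were taken after adding 1 to the scaled TPM and are shown in log2 with their standard error, so that those of weakly expressed genes come out too small.

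Gclm, the modifier subunit, had 735, 426, 596, 296 and 429 scaled TPM in the 5 untreated KO libraries, against 27.2, 26.1, 29.7, 24.5 and 30.7 in the 5 untreated WT libraries. The lowest KO library was far above the highest WT library (log2 fold change 4.05 ± 0.27, limma adjusted p = 3.25e-15). After myelin its levels were 279, 332, 367, 359.7 and 157 scaled TPM in KO libraries, against 39.1, 28.02, 36.5, 37.97 and 41.02 in WT libraries. The groups again did not overlap (log2 fold change 2.95 ± 0.27, limma adjusted p = 1.31e-11). Gsr, glutathione reductase, showed the same order of groups, with 115, 76.5, 83.01, 67.1 and 77.02 scaled TPM in untreated KO libraries, against 17.4, 16.3, 17.04, 12.99 and 11.8 in untreated WT libraries. Every KO library exceeded every WT library (log2 fold change 2.38 ± 0.17, limma adjusted p = 2.85e-14). After myelin Gsr had 63.7 ± 12.3 scaled TPM in KO and 21.2 ± 6.29 in WT libraries (SD, n = 5 each; log2 fold change 1.57 ± 0.17, limma adjusted p = 9.99e-10). Gclc, the catalytic subunit, lay far below Gclm in level, at 47.7, 24.2, 34.3, 20.7 and 23.8 scaled TPM in untreated KO libraries, against 8.14, 8.86, 10.1, 8.05 and 7.79 in untreated WT libraries. Its groups did not overlap either (log2 fold change 1.64 ± 0.20, limma adjusted p = 6.16e-09). After myelin the log2 fold change of Gclc was 1.33 (limma adjusted p = 4.73e-07). In KO libraries the replicates of these genes spread widely, and untreated replicate 1 was the highest for each of the 3.

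Slc7a11 went the other way, with 24.9, 15.6, 17.4, 17.7 and 18.1 scaled TPM in untreated KO libraries, against 53.95, 63.5, 54.4, 74.8 and 66.2 in untreated WT libraries. No KO library reached the lowest WT library (log2 fold change -1.69 ± 0.13, limma adjusted p = 2.32e-13). After myelin it had 11.4 ± 1.30 scaled TPM in KO and 45.9 ± 4.28 in WT libraries (SD, n = 5 each; log2 fold change -1.93 ± 0.13, limma adjusted p = 8.69e-15). Nqo1, the quinone reductase, had 14.9, 13.7, 19.2, 12.7 and 28.6 scaled TPM in untreated KO libraries, against 139.6, 139.7, 146, 209 and 170.2 in untreated WT libraries. The highest KO library, replicate 5, was far below the lowest WT library (log2 fold change -3.15 ± 0.18, limma adjusted p = 5.61e-17). After myelin the log2 fold change of Nqo1 was -3.13 (limma adjusted p = 5.81e-17). The fibroblast and pericyte markers moved with Nqo1 across genotypes. Their sum was 55.9, 46.3, 77.2, 32.1 and 725 scaled TPM in untreated KO libraries, against 1029.8, 917, 873, 1144 and 746 in untreated WT libraries. KO replicate 5 was the highest KO library in both, and the part of these cells in the difference was not tested. Without that library the log2 fold change of Nqo1 was -3.33 (limma adjusted p = 5.3e-18).

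**Figure D2:**
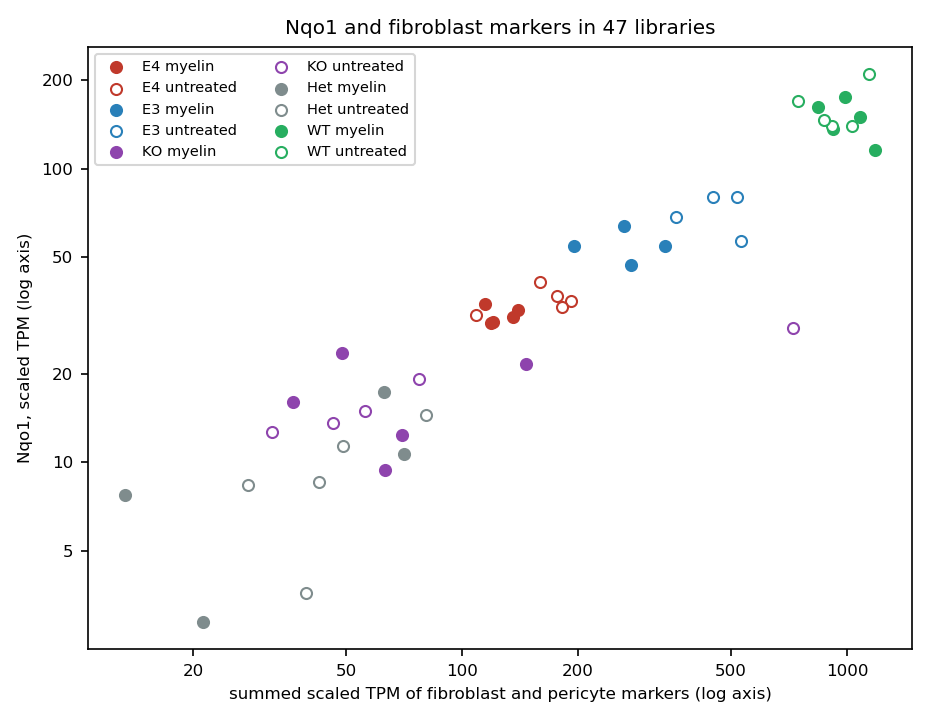
Nqo1 level against the summed level of 8 fibroblast and pericyte markers in each of 47 libraries, both in scaled TPM on log axes; colours are genotypes, filled points are myelin libraries and open points untreated ones. E4, E3, KO and WT libraries form separate bands of Nqo1, while 1 untreated KO library stands at 725 in the markers and 28.6 in Nqo1.

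The thioredoxin and NADPH genes and Hmox1 differed less between KO and WT cells. Srxn1, the peroxiredoxin repair enzyme, had 327, 198, 217, 238 and 212 scaled TPM in untreated KO libraries, against 190.4, 171, 176, 197 and 184 in untreated WT libraries. The lowest KO library was just above the highest WT library (log2 fold change 0.35 ± 0.10, limma adjusted p = 0.00416). Pgd had 606, 431, 452, 479 and 455 scaled TPM in untreated KO libraries, against 339.7, 321, 321, 385 and 358 in untreated WT libraries. These groups did not overlap (log2 fold change 0.48 ± 0.07, limma adjusted p = 3e-07). Neither gene passed the test after myelin, with log2 fold changes of -0.17 for Srxn1 (95% interval -0.39 to 0.038) and 0.11 for Pgd (95% interval -0.029 to 0.26). Txnrd1, the thioredoxin reductase, had 196 ± 31.3 scaled TPM in untreated KO and 223 ± 33.6 in untreated WT libraries (SD, n = 5 each), a log2 fold change of -0.19 that missed the threshold (95% interval -0.42 to 0.047). After myelin it was lower in KO cells (log2 fold change -0.45 ± 0.12, limma adjusted p = 0.00133), with overlapping libraries. Hmox1, the haem oxygenase, had 1036 ± 63.2 scaled TPM in untreated KO and 977 ± 56.1 in untreated WT libraries (SD, n = 5 each; 95% interval of the log2 fold change -0.085 to 0.25). After myelin it was called higher in KO cells (log2 fold change 0.25 ± 0.083, limma adjusted p = 0.0113), but not without WT myelin replicate 1 (log2 fold change 0.16, limma adjusted p = 0.0775). Nfe2l2 itself had 167, 160.1, 159, 171 and 165 scaled TPM in untreated KO libraries, against 174, 181, 195, 213 and 210.1 in untreated WT libraries. Every KO library lay below every WT library (log2 fold change -0.24 ± 0.069, limma adjusted p = 0.00367). After myelin the log2 fold change of Nfe2l2 was -0.044 (95% interval -0.18 to 0.10), which did not pass. In a fit of all 47 libraries without weights, Srxn1 and Nfe2l2 untreated and Hmox1 after myelin were no longer called (limma adjusted p = 0.218, 0.123 and 0.471).

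Het cells, from the stock of the KO cells, are given by their levels because their libraries differed widely. Gclm had 141, 254, 321, 429.5 and 121 scaled TPM in the 5 untreated Het libraries and Gsr 45.1, 72.2, 40.4, 81.2 and 35.96. Each of these values exceeded every untreated WT library, at 24.5 to 30.7 for Gclm and 11.8 to 17.4 for Gsr. Gclc had 10.2 to 22.8 scaled TPM in untreated Het and 7.79 to 10.1 in untreated WT libraries, again without overlap. Nqo1 had 11.4, 8.37, 8.58, 14.5 and 3.59 scaled TPM in untreated Het libraries, all below the WT range of 139.6 to 209. Slc7a11 differed from the KO pattern, with 66.4, 37.6, 37.4, 67.4 and 19.4 scaled TPM in untreated Het libraries, against 53.95 to 74.8 in untreated WT libraries. The Het libraries spread from the KO range into the WT range. A fit with library weights called Gclc, Gclm and Gsr higher and Nqo1 and Txnrd1 lower in untreated Het against WT cells, where 20.4% and 38.4% of all genes were called higher and lower (58.8% in all). In this fit the log2 fold changes were 2.98 for Gclm, 1.89 for Gsr, 0.85 for Gclc, -3.66 for Nqo1 and -0.47 for Txnrd1. Without Het untreated replicate 1 the count fell to 3 of 10 called, and without library weights it was 9 of 10. After myelin, 3 of 10 were higher and 6 of 10 lower in Het against WT cells, where 21.6% and 44.9% of all genes were called (66.5% in all), and without Het myelin replicate 1 the count was 2 of 10 in all. With the 4 Het libraries under 6% coding share left out and no weights, 5 of 10 were called untreated and 8 of 10 after myelin.

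KO against Het, 2 genotypes of 1 stock number, was a comparison added after the data had been seen. Untreated, Srxn1 had 327, 198, 217, 238 and 212 scaled TPM in KO libraries, against 169.8, 147, 96.1, 148 and 32.8 in Het libraries, without overlap (log2 fold change 0.59 ± 0.13, limma adjusted p = 0.000987). Pgd likewise did not overlap, at 431 to 606 scaled TPM in KO and 120.1 to 404 in Het libraries (log2 fold change 0.37 ± 0.092, limma adjusted p = 0.00427). Gclm and Gclc were called higher with overlapping libraries, at log2 fold changes of 1.10 and 0.80. Slc7a11 was lower in KO cells (log2 fold change -1.62 ± 0.17, limma adjusted p = 1.01e-09), and the lowest Het library, replicate 5, lay inside the KO range. Gsr and Nqo1, which differed most from WT along with Gclm, did not pass here. Their log2 fold changes were 0.49 for Gsr and 0.54 for Nqo1 (limma adjusted p = 0.0596 and 0.106). In all, 4 of 10 were higher and 1 lower in untreated KO cells, where 18.9% and 3.79% of all genes were called higher and lower (22.7% in all). After myelin, 8 of 10 were higher and 1, Slc7a11, was lower, where 52.8% and 14.2% of all genes were called (67% in all). Nqo1, lower in KO than in WT cells, was among the 8 higher than in Het cells (log2 fold change 2.015, limma adjusted p = 6.47e-11). Its libraries overlapped, at 9.40 to 23.6 scaled TPM in KO and 2.87 to 17.3 in Het, and its log2 fold change fell as low as 0.41 in the alternative fits. Libraries did not overlap in 2 of 10 genes untreated and 4 of 10 after myelin, as for 14.4% and 34.2% of all genes. These counts rest on few libraries: 0 of 10 passed untreated without Het untreated replicate 1, and 0 of 10 after myelin without Het myelin replicate 1. Without the 4 low Het libraries and without weights, 4 of 10 passed untreated and 7 of 10 after myelin. The gene called lower in both, Slc7a11, had 11.7, 12.5, 11.1, 12.4 and 9.28 scaled TPM in KO libraries after myelin, against 41.7, 21.2, 30.6 and 29.1 in Het libraries.

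Cells with human APOE in place of mouse Apoe had lower levels of most of the 10 genes than WT cells. Untreated, 7 of 10 were lower and 2 higher in E4 cells, where 38.7% and 26.1% of all genes were called lower and higher (64.8% in all). In untreated E3 cells 6 of 10 were lower and 1 higher, against 33.2% and 23.2% of all genes (56.4% in all). Libraries did not overlap with WT in 8 of 10 genes in E4 and 7 of 10 in E3, as for 49.5% and 48.2% of all genes. After myelin, 6 of 10 were lower and 3 higher in E4 cells (30.3% and 24.1% of all genes, 54.4% in all), and 6 of 10 were lower and 2 higher in E3 cells (20.2% and 15.9% of all genes, 36.1% in all). Then 6 of 10 in E4 and 4 of 10 in E3 did not overlap with WT (33.4% and 22.5% of all genes). The median log2 fold change of the 10 genes was -0.42 in untreated E4 and -0.44 in untreated E3 cells, against -0.090 and -0.057 over all genes tested. These comparisons share the WT libraries with each other and with the KO comparison. Scaling to the coding total alone moved the median of all genes in untreated E4 against WT by 0.11, and changed the split of calls over all genes from 2838 higher and 4216 lower to 3558 higher and 3382 lower. In E3 against WT it changed the split from 2527 higher and 3615 lower to 3175 higher and 2789 lower. After myelin it changed the split from 2621 higher and 3304 lower to 3218 higher and 2345 lower in E4, and from 1730 higher and 2200 lower to 2256 higher and 1288 lower in E3.

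Nqo1 had 36.7, 35.4, 33.7, 41.2 and 31.8 scaled TPM in the 5 untreated E4 libraries and 80.3, 56.9, 68.3 and 80.1 in the 4 untreated E3 libraries, against 139.6, 139.7, 146, 209 and 170.2 in untreated WT libraries. The 3 groups did not overlap. The log2 fold change against WT was -2.13 in E4 (limma adjusted p = 1.76e-12) and -1.16 in E3 (limma adjusted p = 4.54e-06). Slc7a11 had 20.5, 30.1, 31.7, 22.5 and 24.4 scaled TPM in untreated E4 libraries and 17.6, 28.9, 21.6 and 17.6 in untreated E3 libraries. Every one of these lay below the WT range of 53.95 to 74.8, with log2 fold changes of -1.25 in E4 and -1.52 in E3 (limma adjusted p = 4.03e-10 and 3.62e-11). Nfe2l2 had 142, 152, 151, 157 and 159 scaled TPM in untreated E4 libraries and 130.5, 131, 134 and 135 in untreated E3 libraries, all below the lowest WT library. Its log2 fold changes were -0.35 in E4 and -0.55 in E3 (limma adjusted p = 3.78e-05 and 1.34e-07). With the coding share as a covariate Nfe2l2 no longer passed in untreated E4 cells (log2 fold change -0.16, limma adjusted p = 0.0788), and after myelin it did not pass there with the coding total alone (log2 fold change -0.17, limma adjusted p = 0.0734).

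Srxn1, Txnrd1 and Pgd, of which none was called lower in untreated KO cells, were lower in both humanised genotypes. Srxn1 had 98.6 ± 9.92 scaled TPM in untreated E4 (SD, n = 5), 117 ± 8.75 in untreated E3 (SD, n = 4) and 184 ± 10.4 in untreated WT libraries (SD, n = 5), with log2 fold changes of -0.89 in E4 and -0.65 in E3. Txnrd1 had 128 ± 12.01, 148 ± 9.11 and 223 ± 33.6 scaled TPM in the same groups, with log2 fold changes of -0.78 in E4 and -0.58 in E3. For Pgd the means were 246 ± 4.32, 274 ± 18.6 and 345 ± 27.3 scaled TPM, and the log2 fold changes -0.48 in E4 and -0.33 in E3. In each of these 6 comparisons no E4 or E3 library reached the lowest WT library, and the limma adjusted p was at most 0.000307. All 3 genes were also called lower after myelin in both genotypes. In the fit of all 47 libraries without weights, Pgd was not called in E3 cells untreated or after myelin, nor Srxn1 in E3 cells after myelin (limma adjusted p = 0.156, 0.299 and 0.116).

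Gclm was the gene called higher in both humanised genotypes, untreated and after myelin. Its levels were 61.3, 43.2, 45.1, 46.3 and 77.4 scaled TPM in untreated E4 libraries and 57.4, 57.9, 36.7 and 52.6 in untreated E3 libraries, all above the WT range of 24.5 to 30.7. The log2 fold changes were 0.93 in E4 and 0.85 in E3 (limma adjusted p = 0.00299 and 0.0118). After myelin they were 1.27 in E4 and 0.97 in E3, where the second did not pass without E3 myelin replicate 3 (log2 fold change 0.67, limma adjusted p = 0.0665). Gsr was called higher in untreated E4 cells at 18.3, 16.9, 19.99, 20.6 and 25.4 scaled TPM, against 17.4, 16.3, 17.04, 12.99 and 11.8 in untreated WT cells, with overlapping libraries (log2 fold change 0.40 ± 0.17, limma adjusted p = 0.0405). That call was lost in 8 of 47 alternative fits. Among these were the fits without E4 untreated replicate 3, 4 or 5 (limma adjusted p = 0.0581, 0.0631 and 0.122) and without WT untreated replicate 4 or 5 (limma adjusted p = 0.0945 and 0.12). After myelin Gsr was also called higher in E4 than in WT cells (log2 fold change 0.54, limma adjusted p = 0.00822). The call after myelin held in each of 47 alternative fits. Gclc passed in E4 cells after myelin, at 13.9 ± 3.50 scaled TPM in E4 and 8.61 ± 1.99 in WT libraries (SD, n = 5 each; log2 fold change 0.63 ± 0.20, limma adjusted p = 0.00742). It did not pass in untreated E4 cells or in E3 cells. Hmox1 was called lower in untreated E4 cells (log2 fold change -0.28 ± 0.083, limma adjusted p = 0.0032), but not with the coding total alone (log2 fold change -0.17, limma adjusted p = 0.0961), the coding share as a covariate (limma adjusted p = 0.0609) or all 47 libraries (limma adjusted p = 0.359). It was called higher in E3 cells after myelin (log2 fold change 0.27 ± 0.088, limma adjusted p = 0.0167), but not without WT myelin replicate 1 (limma adjusted p = 0.0821) or E3 myelin replicate 1 (limma adjusted p = 0.0608), with only the groups compared (limma adjusted p = 0.131) or with all 47 libraries (limma adjusted p = 0.569).

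**Figure D3:**
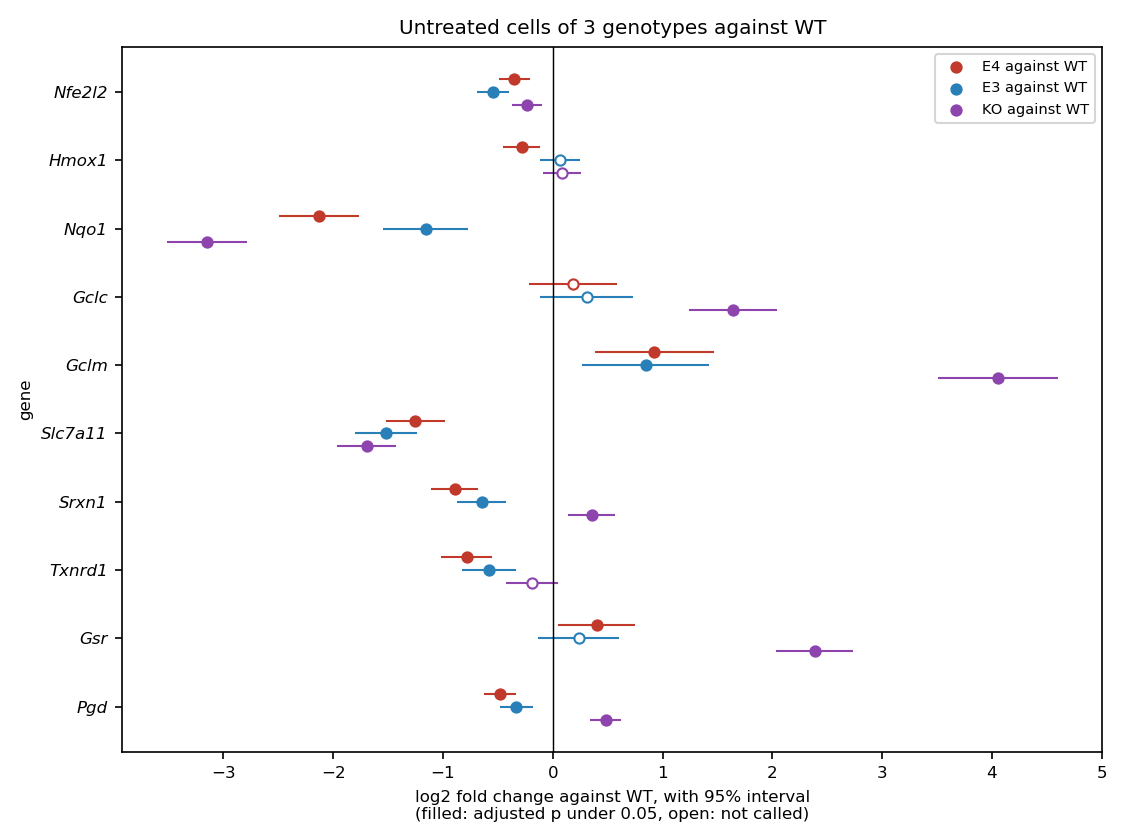
Log2 fold change of each gene in untreated E4, E3 and KO cells against untreated WT cells, with 95% intervals from limma; filled points passed the test at an adjusted p under 0.05 and open points did not. Slc7a11 and Nqo1 lie below 0 in all 3 genotypes and Gclm above 0, while Srxn1 and Pgd lie below 0 in E4 and E3 and above 0 in KO.

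E4 differed from E3, its companion line from the same supplier, in few of the 10 genes. Nqo1 and Hmox1 were lower in E4 cells, untreated and after myelin, and Pgd was lower after myelin. Untreated this makes 0 higher and 2 lower of 10, where 7.49% and 11.1% of all genes were called higher and lower, and after myelin 0 higher and 3 lower, where 6.75% and 5.89% were (18.6% and 12.6% in all). Libraries did not overlap in 4 of 10 genes in each condition, as for 17.1% of all genes untreated and 12.4% after myelin. Nqo1 had the untreated levels given above, and after myelin 29.8, 34.7, 30.04, 32.9 and 31.3 scaled TPM in E4 libraries, against 47.1, 54.6, 63.7 and 54.6 in E3 libraries. No E4 library reached the lowest E3 library in either condition. The log2 fold change of Nqo1 was -0.97 untreated (limma adjusted p = 0.000289) and -0.77 after myelin (limma adjusted p = 0.00511). Hmox1 had 736, 794, 808, 782 and 893 scaled TPM in untreated E4 libraries, against 935, 957, 1052 and 1153 in untreated E3 libraries. After myelin it had 809.8, 946, 845, 743 and 827 scaled TPM in E4 libraries, against 1139.8, 1037, 1101 and 983 in E3 libraries. The groups did not overlap in either condition, with log2 fold changes of -0.35 untreated and -0.35 after myelin (limma adjusted p = 0.00412 and 0.00528). Pgd after myelin had 216, 217, 209, 193 and 229 scaled TPM in E4 libraries, against 268, 256, 253 and 250.1 in E3 libraries, also without overlap (log2 fold change -0.27 ± 0.074, limma adjusted p = 0.0115). Srxn1 did not overlap in either condition but missed the threshold, with log2 fold changes of -0.25 untreated and -0.24 after myelin (95% intervals -0.47 to -0.021 and -0.47 to -0.019). Nfe2l2 did not overlap untreated and lay higher in E4 cells, at a log2 fold change of 0.19 with a limma adjusted p of 0.0588. For Gclm and Gclc the 95% intervals of the untreated log2 difference were -0.50 to 0.66 and -0.55 to 0.30. Fibroblast and pericyte marker sums were lower and astrocyte marker sums higher in E4 than in E3 libraries, without overlap, and their part in these differences was not tested. In a fit of all 47 libraries without weights, the untreated call of Nqo1 alone passed.

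Myelin changed few of the 10 genes. The cystine importer Slc7a11 fell in E4, KO and WT cells, Gsr rose in E4 and E3 cells, Pgd fell in E4 and KO cells, and Srxn1 fell in KO cells. In E4 cells 1 of 10 rose and 2 fell, where 9.54% and 4.59% of all genes rose and fell (14.1% in all). The other counts were 1 up and 0 down in E3 cells (4.59% and 2.78%, 7.37% of all genes together), 0 up and 3 down in KO cells (2.18% and 1.65%, 3.84% together) and 0 up and 1 down in WT cells (5.55% and 0.945%, 6.5% together). Libraries did not overlap in 3 of 10 genes in E4 (10.4% of all genes), 1 of 10 in E3 (16.8%), 3 of 10 in KO (6.61%) and 1 of 10 in WT cells (2.59%). Nfe2l2, Hmox1, Nqo1 and Txnrd1 passed in none of the 4 responses, and their 95% intervals lay between -0.77 and 0.32 on the log2 scale. Gclc and Gclm also passed in none of them. The log2 fold changes of Gclc were 0.43 in E4, -0.023 in E3, -0.32 in KO and -0.0155 in WT cells. With the coding total alone, the split of calls over all genes changed from 1039 higher and 500 lower to 747 higher and 735 lower in E4 cells. It changed from 500 higher and 303 lower to 341 higher and 377 lower in E3 cells, and from 238 higher and 180 lower to 124 higher and 187 lower in KO cells.

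Slc7a11 had 17.9, 14.5, 13.5, 15.8 and 16.7 scaled TPM in E4 cells with myelin, against 20.5, 30.1, 31.7, 22.5 and 24.4 in untreated E4 cells. The groups did not overlap (log2 fold change -0.67 ± 0.13, limma adjusted p = 0.000609). In KO cells it had 11.7, 12.5, 11.1, 12.4 and 9.28 scaled TPM with myelin, against 24.9, 15.6, 17.4, 17.7 and 18.1 untreated. Here too every myelin library lay below every untreated one (log2 fold change -0.66 ± 0.13, limma adjusted p = 0.00194). In WT cells the levels were 45.6, 41.4, 42.5, 51.9 and 48.2 scaled TPM with myelin, against 53.95, 63.5, 54.4, 74.8 and 66.2 untreated, again without overlap (log2 fold change -0.43 ± 0.13, limma adjusted p = 0.0406). The WT call did not pass without WT untreated replicate 2, 4 or 5 (limma adjusted p = 0.0722, 0.169 and 0.107) or without WT myelin replicate 1, 2, 3 or 5 (limma adjusted p = 0.0913, 0.0711, 0.0882 and 0.0571). In E3 cells Slc7a11 had 16.7, 22.1, 23.9 and 18.1 scaled TPM with myelin, against 17.6, 28.9, 21.6 and 17.6 untreated. The groups overlapped, and the log2 fold change was -0.066 (95% interval -0.37 to 0.23). The response of Slc7a11 in E4 minus that in E3 was -0.61 on the log2 scale and did not pass (limma adjusted p = 0.669). In the fit of all 47 libraries without weights Slc7a11 missed the threshold in E4, KO and WT cells (limma adjusted p = 0.0636, 0.24 and 0.409).

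Gsr had 26.2, 38.5, 30.1, 31.3 and 26.5 scaled TPM in E4 cells with myelin, against 18.3, 16.9, 19.99, 20.6 and 25.4 untreated. In E3 cells it had 20.02, 34.6, 38.3 and 22.6 scaled TPM with myelin, against 19.1, 18.4, 16.3 and 17.6 untreated. In both genotypes every myelin library lay above every untreated one, with log2 fold changes of 0.57 in E4 (limma adjusted p = 0.0228) and 0.62 in E3 (limma adjusted p = 0.0433). The E4 call did not pass without E4 untreated replicate 1 or 2 or E4 myelin replicate 2 (limma adjusted p = 0.06, 0.0681 and 0.0675) or with the coding share as a covariate (log2 fold change 0.40, limma adjusted p = 0.245), the coding share being 18.6 ± 3.39% with myelin and 12.1 ± 3.24% untreated in E4 libraries (SD, n = 5 each). The E3 call did not pass without E3 untreated replicate 1, 2, 3 or 4 (limma adjusted p = 0.0707, 0.0854, 0.0825 and 0.0819) or E3 myelin replicate 2 or 3 (limma adjusted p = 0.112 and 0.224). In WT cells Gsr had 21.2 ± 6.29 scaled TPM with myelin and 15.1 ± 2.54 untreated (SD, n = 5 each), a log2 fold change of 0.43 that missed the threshold. In KO cells it was -0.39, which also missed it. Gclm had 62.5, 194, 104, 60.2 and 71.4 scaled TPM in E4 cells with myelin, against 61.3, 43.2, 45.1, 46.3 and 77.4 untreated. The libraries overlapped, replicate 2 with myelin was the highest, and the log2 fold change of 0.72 missed the threshold (limma adjusted p = 0.0658). In KO cells the log2 fold change of Gclm was -0.72 (limma adjusted p = 0.133).

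Srxn1 and Pgd both fell in KO cells given myelin. Srxn1 had 152, 135, 146, 171 and 155 scaled TPM with myelin, against 327, 198, 217, 238 and 212 untreated (log2 fold change -0.63 ± 0.10, limma adjusted p = 0.000307). Pgd had 354, 314, 331, 347 and 365 scaled TPM with myelin, against 606, 431, 452, 479 and 455 untreated (log2 fold change -0.49 ± 0.07, limma adjusted p = 7.99e-05). Neither gene overlapped between the groups, and both calls held without each library in turn, though not in the fit of all 47 libraries without weights (limma adjusted p = 0.368 for Srxn1 and 0.364 for Pgd). In E4 cells Pgd had 216, 217, 209, 193 and 229 scaled TPM with myelin, against 246, 247, 252, 239.9 and 246 untreated. These groups did not overlap either (log2 fold change -0.21 ± 0.07, limma adjusted p = 0.0387), but the call was lost without E4 untreated replicate 1, 2 or 3 (limma adjusted p = 0.0706, 0.0701 and 0.0785) or E4 myelin replicate 1, 2, 3 or 4 (limma adjusted p = 0.0522, 0.0501, 0.0777 and 0.12). For Srxn1 the 95% intervals of the response were -0.20 to 0.23 in E4, -0.22 to 0.25 in E3 and -0.31 to 0.11 in WT cells.

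**Figure D4:**
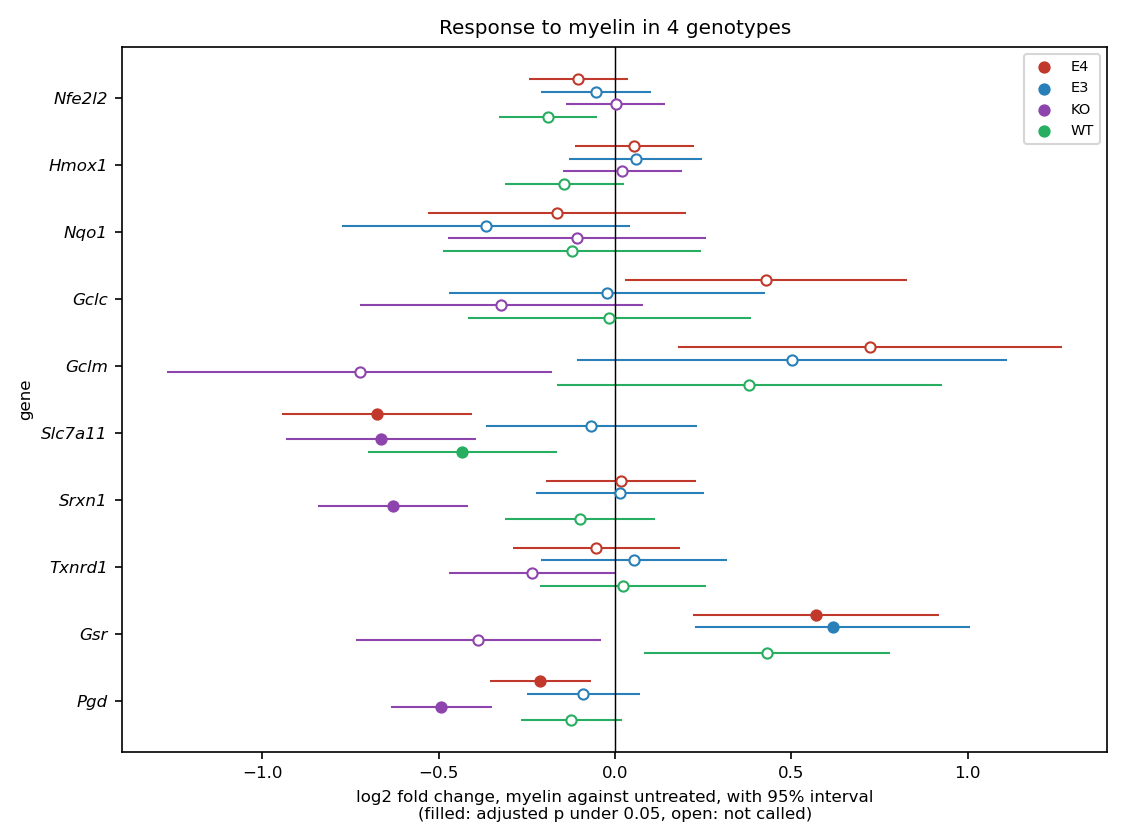
Log2 fold change of each gene with myelin against untreated cells in E4, E3, KO and WT, with 95% intervals from limma; filled points passed the test at an adjusted p under 0.05 and open points did not. Gsr and Gclm lie above 0 in E4, E3 and WT and below 0 in KO, and Slc7a11 lies below 0 in all 4, closest to 0 in E3.

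The difference between responses was tested as an interaction. KO cells responded differently from WT cells in 3 of 10 genes, all lower, where 2.54% of all genes were called lower and 3.17% higher (5.71% in all). The response in KO minus that in WT was -0.82 for Gsr (limma adjusted p = 0.0415), -0.53 for Srxn1 (limma adjusted p = 0.0333) and -0.37 for Pgd (limma adjusted p = 0.0293). For Gclm it was -1.10, larger in size but not past the threshold (limma adjusted p = 0.0702). These calls depend on single libraries. Srxn1 and Gsr and Pgd all missed the threshold without KO myelin replicate 2 (limma adjusted p = 0.0587, 0.0544 and 0.051) and without KO untreated replicate 1 (limma adjusted p = 0.0625, 0.0774 and 0.0535). Pgd passed without any other single library. Srxn1 was also lost without WT untreated replicate 3 or 5, WT myelin replicate 3 or 4 or KO myelin replicate 3, with limma adjusted p between 0.0505 and 0.0598. Gsr was also lost without WT untreated replicate 4 or 5, WT myelin replicate 1 or 5, KO untreated replicate 2, 3 or 5 or KO myelin replicate 1 or 5, with limma adjusted p between 0.0555 and 0.0889. Between E4 and E3, E4 and WT, and E3 and WT, 0 of 10 responses differed by limma, with 1, 0 and 0 of 10 at an unadjusted p under 0.05. Over all genes tested the calls were 0.00918%, 6.97% and 4.51%. With the coding total alone, 1 of 10 genes was called for KO minus WT, and the split over all genes changed from 345 higher and 277 lower to 64 higher and 128 lower. It changed from 544 higher and 215 lower to 277 higher and 229 lower for E4 minus WT, and from 366 higher and 125 lower to 135 higher and 80 lower for E3 minus WT.

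Het cells given myelin had lower fitted levels of Nfe2l2, Nqo1, Slc7a11, Srxn1, Txnrd1 and Pgd in the fit with library weights, 6 of 10 lower and 0 higher, where 15.1% and 3.43% of all genes were called (18.6% in all). Each of the 10 genes overlapped between the groups, and 0.67% of all genes did not. Srxn1 had 77.1, 82.4, 91.3 and 120.2 scaled TPM with myelin, against 169.8, 147, 96.1, 148 and 32.8 untreated. Untreated replicate 5, the library with a coding share of 0.468%, was the lowest. The measured mean of Nqo1 was not lower with myelin, at 9.64 scaled TPM against 9.29 untreated. Its weighted log2 fold change was -1.50, and 0.13 without Het myelin replicate 1. Without library weights 0 of 10 passed, with or without the 4 low Het libraries, and 0 passed without Het untreated replicate 1.

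Of 40 further genes of the NRF2 pathway, all of which were tested, the regulators and the targets went in both directions. In untreated KO against WT cells 16 rose and 9 fell, where 26.1% and 30.9% of all genes were called higher and lower, and after myelin 15 rose and 14 fell, where 30.6% and 25.2% were. With all 47 libraries the calls after myelin were 17 in both directions together. The 4 with the largest change were the glutathione transferases Gstp1 (80.6 scaled TPM in KO and 476 in WT libraries on average, log2 fold change -2.60) and Gsta4 (-2.39), the glutathione synthetase Gss (-1.23) and the biliverdin reductase Blvrb (1.17). All 6 iron and haem genes were called higher in KO cells, untreated and after myelin, against the shares of calls just given. Their median log2 fold change was 0.64 and 0.65, against -0.033 and 0.055 over all genes tested. Ferritin light chain Ftl1 and the iron exporter Slc40a1 were among the 6, at 0.78 and 0.76 untreated. Keap1, the inhibitor of NRF2, rose in KO cells (45.9 scaled TPM in KO and 29.2 in WT libraries on average, log2 fold change 0.64 ± 0.10, limma adjusted p = 9.33e-07). Bach1, the competing repressor, did not pass, at a log2 fold change of -0.068 (95% interval -0.27 to 0.13). The NADPH genes held 3 of 5 higher and 0 lower, and the genes of glutathione use and conjugation 2 of 11 higher and 4 lower. After myelin the largest changes in KO cells were in Gstp1 (-3.15), Gsta4 (-2.50), Ephx1, an epoxide hydrolase (-1.23), and Gss (-1.20), and Keap1 was again higher (0.34, limma adjusted p = 0.00355). Bach1 did not pass there either (0.22, limma adjusted p = 0.0515).

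In untreated E4 against WT cells 12 of the 40 rose and 17 fell, where 26.1% and 38.7% of all genes were called higher and lower. In untreated E3 against WT cells 9 rose and 10 fell, where 23.2% and 33.2% were. After myelin the counts were 9 up and 14 down in E4 (24.1% and 30.3% of all genes) and 8 up and 7 down in E3 (15.9% and 20.2%). These counts lie near the shares over all genes, and with all 47 libraries the calls in both directions together were 16 in E4 and 11 in E3 untreated, and 14 in E4 and 6 in E3 after myelin. The largest changes after myelin in E4 were in Gstm1 (1.97), Prdx6 (1.62), the exporter Abcc1 (-0.98) and Gstp1 (-0.80), and in E3 in Gstm1 (1.82), Prdx6 (1.14), Gstp1 (-0.74) and Ephx1 (0.69). Untreated, Gstm1, a glutathione transferase, and Prdx6, a peroxiredoxin, rose most in both, by 1.96 and 1.48 on the log2 scale in E4 and by 1.89 and 1.19 in E3. Both genes are strongly expressed by astrocytes, whose summed markers are given above, and the part of astrocytes in this was not tested. Slc40a1 was lower in both, at -1.19 in E4 and -1.04 in E3, Prdx1 stood at -1.02 in E4, and Ephx1 at 1.06 in E3. Keap1 rose in E4 cells (log2 fold change 0.44 ± 0.10, limma adjusted p = 0.000225), and its log2 fold change in E3 cells was 0.20 (limma adjusted p = 0.103). Bach1 fell in both, with log2 fold changes of -0.75 in E4 and -0.83 in E3 (limma adjusted p = 3.44e-08 and 3.03e-08). After myelin Bach1 was again called lower, at smaller log2 fold changes of -0.27 in E4 and -0.31 in E3 (limma adjusted p = 0.017 and 0.0167). Keap1 was then 0.42 in E4 and 0.24 in E3 (limma adjusted p = 0.000517 and 0.0709). Between untreated E4 and E3 cells 1 of 40 rose and 4 fell (7.49% and 11.1% of all genes), and 3 in all were called without E4 untreated replicate 4 or E3 untreated replicate 3 or 4. The largest were Prdx1 at -0.48, the small MAF gene Mafk at -0.44, the thioredoxin Txn1 at -0.36 and Prdx6 at 0.30. After myelin 1 rose and 3 fell (6.75% and 5.89% of all genes), with Abcc1 at -0.53, Prdx6 at 0.48, Prdx1 at -0.38 and catalase, Cat, at -0.36. With all 47 libraries 0 of 40 were called untreated and 1 after myelin. Keap1 and Bach1 did not pass between E4 and E3, with untreated log2 fold changes of 0.24 and 0.083.

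Among the same 40 genes, myelin raised 0 and lowered 6 in E4 cells, 2 in E3 cells, 7 in KO cells and 1 in WT cells, where 4.59%, 2.78%, 1.65% and 0.945% of all genes fell. With all 47 libraries each of these counts was 0, and with library weights they were 10, 9, 11 and 2. In E3 cells the count was 0 without E3 untreated replicate 1 or 4 or E3 myelin replicate 3 or 4, 1 without E3 untreated replicate 2 and 4 without WT myelin replicate 3. In WT cells it was 0 without WT untreated replicate 3, 4 or 5 or WT myelin replicate 1 or 3, and 2 or 3 without WT untreated replicate 1, WT myelin replicate 2, 4 or 5 or E4 untreated replicate 1. In E4 cells the largest were Gstp1 (-0.48), the carbonyl reductase Cbr3 (-0.43), the glutathione peroxidase Gpx1 (-0.43) and Abcc1 (-0.40), as log2 fold changes. In KO cells they were Osgin1, a gene named for its induction by oxidative stress (-0.67), Cbr3 (-0.58), Gstp1 (-0.57) and Taldo1 (-0.45), the transaldolase of the pentose phosphate pathway. The E3 calls were Gstp1 (-0.55) and Ephx1 (-0.37), and the WT call was the dehydrogenase Ugdh (-0.36). Keap1 and Bach1 passed in none of these 4 responses, and Keap1 had log2 fold changes of 0.10 in E4, 0.15 in E3, -0.18 in KO and 0.11 in WT cells. By the interaction test, 2 of the 40 responses, those of Bach1 and the NADPH-forming dehydrogenase Idh1, were called higher in E4 and in E3 than in WT cells, where 4.99% and 3.36% of all genes were. The difference was 0.47 in E4 and 0.52 in E3 for Bach1 (limma adjusted p = 0.0325 and 0.0381), and 0.51 and 0.65 for Idh1 (limma adjusted p = 0.0475 and 0.0297). In both comparisons 0 of 40 passed without WT untreated replicate 4 or 5 or WT myelin replicate 3, with no filter, with all 47 libraries or with only the groups compared. For E4 the count was also 0 without E4 untreated replicate 1 or E4 myelin replicate 3 or 5, and for E3 without WT myelin replicate 1, E3 untreated replicate 1 or 2 or E3 myelin replicate 3. For KO minus WT the call was Cbr3 (-0.54, limma adjusted p = 0.0364), and 0 passed without WT untreated replicate 4, WT myelin replicate 3, KO untreated replicate 1, 2 or 3 or KO myelin replicate 3 or 5. Gstp1, Gstm1, Gsta4, Prdx1, Prdx6, Txn1 and the ferritin genes have near-identical copies or pseudogenes between which reads may be divided, so their values are uncertain.

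Per length, the 10 genes covered a wide range of levels. In untreated WT cells Hmox1 was the highest at 977 ± 56.1 scaled TPM and Gclc the lowest at 8.59 ± 0.934 (SD, n = 5 each). In untreated KO cells Hmox1 was again the highest, at 1036 ± 63.2 scaled TPM, followed by Gclm at 496 ± 171 and Pgd at 484 ± 70.04 (SD, n = 5 each), and the libraries of Gclm and Pgd overlapped. Across the 38 libraries other than Het, the genes formed groups that moved together. Gclm and Gsr had a Pearson correlation of 0.966 on the log2 scale and 0.736 once the group means were removed, and Gclc and Gclm had 0.949 and 0.781. Srxn1 and Pgd had 0.93 and 0.706. Nqo1 and Slc7a11 had 0.85 over the libraries but 0.0811 within groups, and Nqo1 and Gclm had -0.832 and 0.12, so that these relations lay between the groups. Nfe2l2 had -0.0547 with Gclm and 0.612 with Srxn1 over the libraries, but -0.0425 and 0.153 within groups. These correlations describe 8 groups whose libraries share genotype and treatment, and carry no test. The 5 other genes closest to the mean of the 10 standardised genes were B430306N03Rik, A530064D06Rik, Ptger2, Gdpd1 and Zdhhc9, with correlations between 0.907 and 0.933 over the same libraries. That mean followed Srxn1 most closely (0.972) and Nqo1 least (-0.007). The genes most like Gclm, a likeness added after the data had been seen, were Gsr, Bloc1s3, Sh2b3, Smarcd2 and Rufy3, with correlations between 0.96 and 0.966. Once the group means were removed, these genes had 0.736 to 0.804. The closest to Gclm were then Tmem165, Rnf11, Srsf9, Arl8a and Tmem189, with 0.874 to 0.915.

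**Figure D5:**
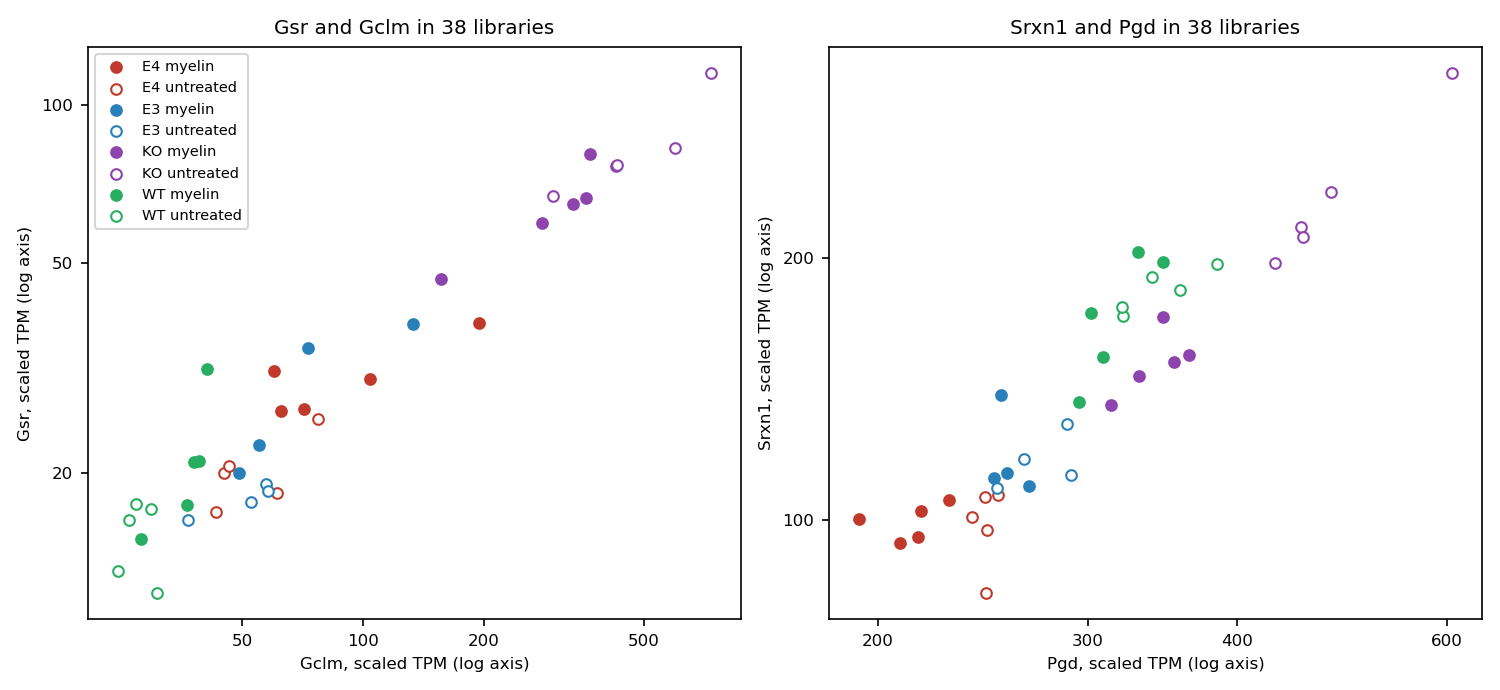
Gsr against Gclm (left) and Srxn1 against Pgd (right) in the 38 E4, E3, KO and WT libraries, in scaled TPM on log axes; filled points are myelin libraries and open points untreated ones. KO libraries hold the highest Gsr and most of the highest Gclm values, with 1 E4 myelin library at 194 in Gclm above the lowest KO library at 157, and untreated KO libraries hold the highest Pgd, 431 to 606.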

How the data were processed

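The authors deposited TPM values (transcript abundance per length, scaled to a fixed library total) for 53697 genes in 47 columns. Each column was matched to a sample by its title, and 0 were left unused. RNA was polyA-selected and prepared with a kit for low input, per the labels' protocols. The submitters' processing notes name Salmon 0.13.1, limma 3.40.6 and mm10 without saying what each was used for. Annotation release, counting options and strand setting: not given in the sources used here. GENCODE vM21, of the mm10 build, gave positions and held 98.34% of the gene identifiers.

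Because TPM hold no depth, no counting interval is given. Nuclear protein-coding genes were rescaled to 1000000 per library and corrected by a trimmed-mean factor (trim of 30% on ratios, 5% on levels). Protein-coding genes (10614) and lincRNA genes (280) were tested if 4 or more libraries reached 5 scaled TPM. The model was limma 3.58.1 in R 4.3.3 on log2 of scaled TPM plus 1, with a trend and without library weights, over the 38 E4, E3, KO and WT libraries. Comparisons with Het used all 47 libraries with a weight for each (arrayWeights). There were 19 comparisons by design, and 2 of KO against Het were added after seeing the data. Alternatives were the coding total alone, pseudocounts of 0.1 and 5, no filter, library weights, all 47 libraries, only the groups compared, the coding share as covariate, a replicate block, and each library left out in turn.

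The 10 genes, the 40 further pathway genes, the marker lists and the fits were chosen with earlier results of these data known. Named in the text are the 10 genes, Keap1, Bach1, the called genes with the largest change among the 40 (at most 4 in each comparison without Het; those of the Het comparisons are not described) and the 5 genes most like the mean of the 10. Ftl1 and Slc40a1 in KO cells, and genes like Gclm, were named after their values were seen. Pairs of libraries within a group had correlations of 0.792 to 0.989 in log2, and none was taken for a repeat of another. The fit was tested on simulated data with known changes.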

Additional observations from a re-analysis of the deposited data

Results flagged for a closer look

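Of 100 sets of libraries, 1 for each gene and group, 5 held a library far from the others of its group, which chance gives in about 1 of 20. Nfe2l2 had 126.1 scaled TPM in E4 myelin replicate 2, below the 143 to 147 of the other E4 myelin libraries. Hmox1 had 1075 in WT untreated replicate 4, above the 941 to 969.6 of the others. Srxn1 had 139 in E3 myelin replicate 3, above 109 to 113. Txnrd1 had 141 in E4 myelin replicate 4, above 115 to 121. Gsr had 55.2 in Het myelin replicate 1, above 47.3 to 48.3, and that library is 1 of the 4 Het libraries under 6% coding share.

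The response to myelin differed between KO and WT cells by the interaction test in 3 genes. The log2 difference, KO minus WT, was -0.53 for Srxn1, -0.37 for Pgd and -0.82 for Gsr, and each of these calls was lost when certain single libraries were left out.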

How the results depend on the processing

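Counts of the 10 genes called (in brackets) changed as follows. For myelin in E4 (3) the count was 1 with no filter, 5 with library weights and 0 with all 47 libraries; for myelin in E3 (1) it was 0 with the coding total alone, no filter, all 47 libraries, only the groups compared or the replicate block; for myelin in WT (1) it was 0 with the coding total alone, no filter, library weights, all 47 libraries, only the groups compared or the covariate; and for myelin in KO (3) it was 0 with all 47 libraries. For the KO minus WT response (3) it was 1 with the coding total alone, and 0 with no filter, all 47 libraries or only the groups compared. For E4 against E3 it was 4 with weights and 1 with all 47 libraries untreated (2), and 6 with weights, 0 with all 47 libraries and 6 with the covariate after myelin (3). For the E4 minus E3 response (0) it was 1 with weights, and for E3 against WT after myelin (8) it was 5 with all 47 libraries. Without library weights the count was 9 for KO against Het untreated (5), 9 for Het against WT untreated (5) and 0 for the Het response (6), and for that response it was also 0 with no weights and no Het library under 6% coding. The cause of these changes was not tested. Leaving out 1 library gave 1 to 4 for myelin in E4, 0 to 1 in E3, 0 to 2 in WT, 2 to 3 for E4 against E3 untreated, 0 to 4 for the KO minus WT response, 0 to 9 and 0 to 10 for KO against Het untreated and after myelin, 0 to 8 for the Het response, and 3 to 7 and 2 to 10 for Het against WT untreated and after myelin. Leaving out 1 library moved the Het response of Gclm between -0.75 and 0.49 and that of Nqo1 between -1.72 and 0.13, on the log2 scale, the positive values being those without Het untreated replicate 4 and without Het myelin replicate 1. Over single values, 9755 stayed on their side of the threshold, where those not called could change sign, 186 lost a call, 77 gained one, and 2 changed sign with a call on one side.

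Whether replicate numbers pair the libraries is not known, and correlations among so few libraries cannot decide it. Same-numbered libraries correlated over 0.1 in 1 of 5 pairs in E4, 1 of 4 in E3, 0 of 5 in KO, 1 of 4 in Het and 2 of 5 in WT, and only a minority correlated best with their own number. With the number as a block, 3, 0, 3 and 1 genes were called for myelin in E4, E3, KO and WT, and 2 for the KO minus WT response. TPM give no depth, so how far depth limits low genes such as Gclc is unknown.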
